A study of Rattus norvegicus with 19 samples.

Results

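The transcripts described here are 35 rows of a gene count table that were readily detected in some rats and nearly missing in others. They were chosen by their measured levels among 32883 rows of Ensembl gene IDs, in CPM, the usual library-scaled read count (the count divided by the library's total, times 1000000). A row had to reach 2 CPM or more in at least 3 of the 19 libraries and lie at 0.3 CPM or less in at least 3. It also had to have an absolute Pearson r under 0.6, on log2(CPM + 1), with each of 2 reference rows, ENSRNOG00000016275 and ENSRNOG00000028362, which vary strongly among these libraries. The CPM limits were met by 115 rows, of which 74 were left out for their r with the first reference row and 6 for their r with the second. In what follows a member is called on in a library at 2 CPM or more, off at 0.3 CPM or less, and otherwise between the limits. The group labels took no part in the choice, but the levels did, so the states are a description and carry no test.

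Each library comes from the brain of 1 adult female Wistar rat that itself ate chow. Per the series text the tissue was amygdala. That text speaks of male rats where every sample label says female. The labels group the daughters by what the father had met. This was nothing (control, 5 daughters), a high-fat diet (HFD, 4), early life stress (ELS, 5) or both (ELS-HFD, 5). The series text gives the stress as maternal separation. Each library also carries a number of unstated meaning, from 70 to 102 in all ELS and ELS-HFD libraries. It was 53, 56, 58, 120 and 131 in control, and 64, 86, 113 and 127 in HFD. All daughters, the controls included, went through an elevated plus maze at postnatal day 57 ± 1. Nothing in the labels says which rats share a father, a mother or a litter, so whether any of them are sisters is unknown, and the p-values below rest on the spread between these rats alone, which may not be independent.

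Wistar rats are an outbred stock, in which animals differ at many places in the genome. A variant that removes a promoter, an exon or a whole gene can leave an animal without a transcript that its cage mates make, and sisters then tend to share the state because they draw on the same parental chromosomes. Such a transcript takes a few separate levels, set by how many working copies an animal carries, with few values in between. In whole tissue a level can also follow how much of each cell type a sample holds, and fewer cells of a type and less RNA per cell cannot be told apart.

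Library totals ran from 7034837 to 20266594 counts, with 17579 to 18986 IDs detected. The limit of 0.3 CPM corresponds to 6.08 counts in the deepest library, control 1, and to 2.11 counts in the shallowest, ELS-HFD 2. A count of 0 in ELS-HFD 2 allows up to 0.426 CPM (3 counts of the total), which is above the limit for off, while in the other libraries it allows 0.148 to 0.297 CPM. HFD 1, ELS-HFD 2 and ELS-HFD 3 stood apart in the second reference row, at 14.5, 43.9 and 41.3 CPM against 94.9 to 279 CPM in the other 16 libraries. No table used here pairs the Ensembl IDs with gene symbols. The members are therefore described by their values, with 4 of their IDs printed, and the tissue could not be checked against marker genes.

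Most members did not behave as present or absent. Of the 665 values (35 members in 19 libraries), 152 were on (22.9%), 171 were off (25.7%) and 342 lay between the limits (51.4%). No member was either on or off in all 19 libraries: the number of libraries between the limits ran from 3 to 13 per member, with a median of 10. A count of exactly 0 occurred in 25 of the 665 values.

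**Figure D1:**
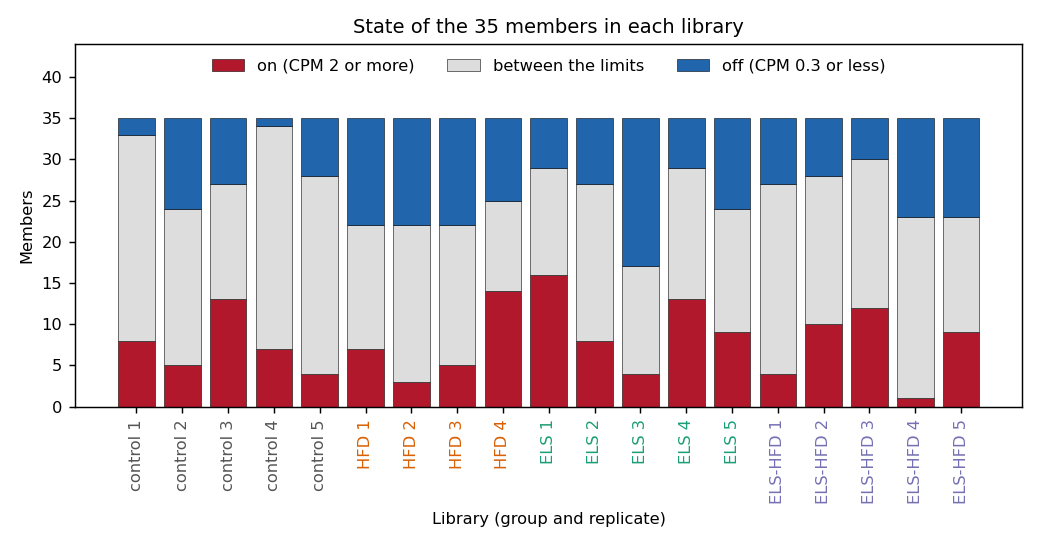
Number of members (vertical axis) that were on, between the limits or off in each of the 19 libraries (horizontal axis, coloured by group). The grey part, between the limits, holds 11 to 27 of the 35 members in every library.

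Counting error does not place all of these values at a limit. With exact 95% Poisson intervals, which cover counting error only, 116 of the 342 values between the limits had an interval that excluded both 0.3 and 2 CPM, and 34 of the 35 members had at least 1 such value. All 152 on values had an interval wholly above 0.3 CPM, and all 171 off values had one wholly below 2 CPM. Fewer values cleared their own limit with the whole interval: 87 on values lay above 2 CPM and 16 off values below 0.3 CPM.

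Most members also lacked a clear step between low and high libraries. For each member the 19 levels were sorted, and the widest gap between neighbours with at least 3 libraries on either side was taken on the log2(CPM + 1) scale. The gap had a median of 0.43 and ran from 0.25 to 1.29. It was under 0.5 in 23 members, over 1 in 2, and at least 2 in 0. A step from 0.3 to 2 CPM is itself under 2 on this scale, and 20 members stayed under 5 CPM. A gap of 2 was therefore hard to reach even for a member strictly on or off. Among the 80 rows left out for their r, the median gap was 0.61 and 17 had a gap over 1, but those rows also reached higher levels, with a median maximum of 9.52 CPM against 4.33 CPM in the members. A higher maximum leaves more room for a gap, and this was not adjusted for.

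**Figure D2:**
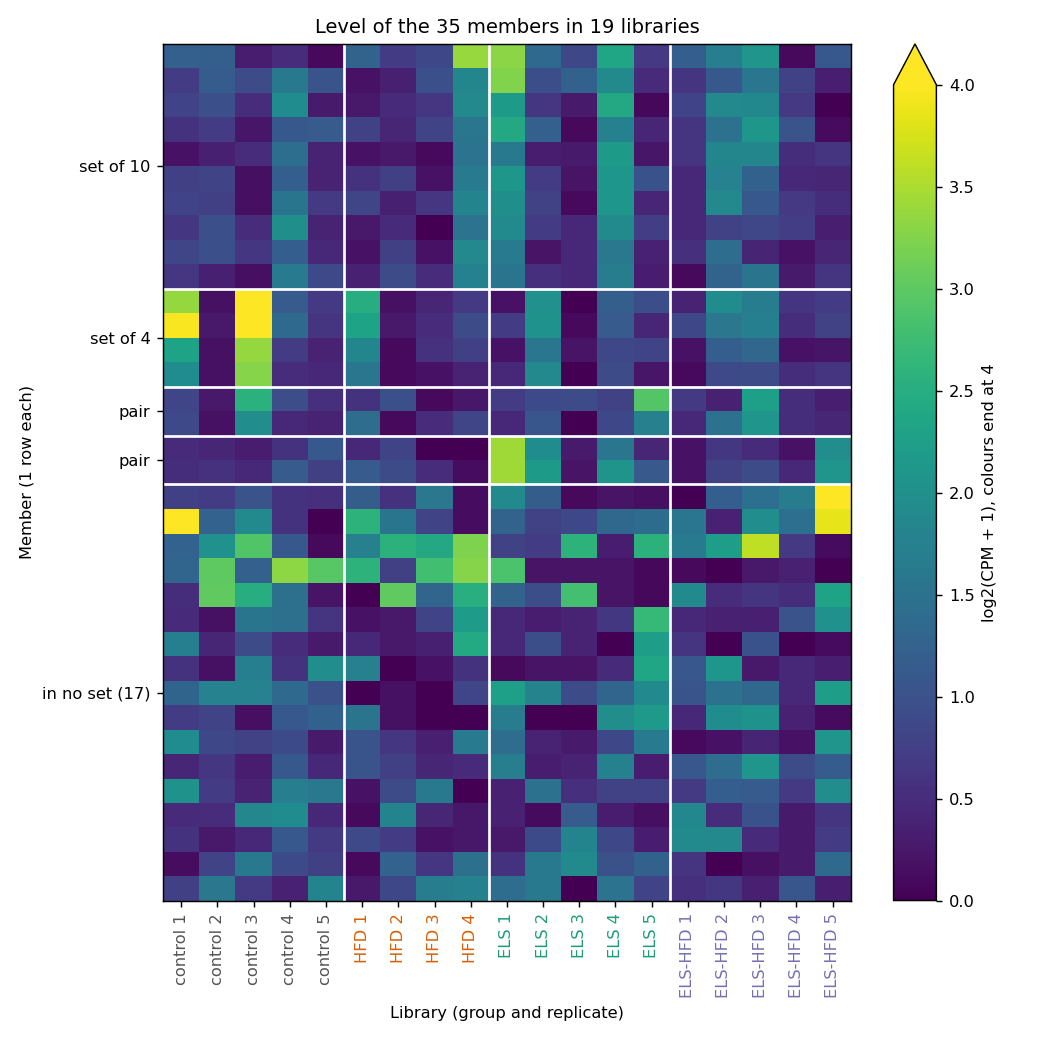
Level of each member (rows, as log2(CPM + 1) in colour) in each library (columns, by group). Members are arranged in a set of 10, a set of 4, 2 pairs and 17 that belong to no set. Most rows grade from low to high without a step, and each member is on in at least 2 groups.

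The member closest to a discrete pattern was ENSRNOG00000029386, the only row that also met stricter limits of 3 and 0.1 CPM. In daughters of control fathers it was at 1.48, 7.0, 1.33, 8.98 and 6.83 CPM (replicates 1 to 5), and in daughters of HFD fathers at 5.03, 0.690, 5.90 and 8.72 CPM. In daughters of ELS fathers it was at 6.31, 0.158, 0.151, 0.164 and 0.0590 CPM, and in daughters of ELS-HFD fathers at 0.0753, 0, 0.203, 0.294 and 0 CPM. The 19 values thus lay in 3 ranges: 7 libraries from 5.03 to 8.98 CPM, 3 from 0.690 to 1.48 CPM (HFD 2 and control 1 and 3), and 9 at 0.294 CPM or less, which were 4 of the 5 ELS and all 5 ELS-HFD libraries. In raw counts the first range held 71 to 126 reads, the second 10 to 30 and the third 0 to 4. ELS 1 was the one daughter of a stressed father outside the lowest range, with 89 reads. The library number also divided the levels of this member. Libraries numbered 75 to 102 were all at 0.690 CPM or less, with HFD 2 (number 86) the highest. Those numbered 53 to 70, where ELS 1 is number 70, and 113 to 131 were all at 1.33 CPM or more. Number and paternal ELS overlap, and which of them the level follows was not tested.

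In every control and HFD library ENSRNOG00000029386 was above every ELS and ELS-HFD library other than ELS 1. The mean level was 0.115 ± 0.130 CPM (SD, n = 5) in the ELS-HFD group and 1.37 ± 2.76 CPM (SD, n = 5) in the ELS group, beside 5.09 ± 3.33 CPM (SD, n = 4) for HFD and 5.12 ± 3.50 CPM (SD, n = 5) for control. For paternal ELS averaged over both diets, edgeR's quasi-likelihood test put the log2 fold change at -3.61 ± 0.80 (SE). Its adjusted p from edgeR was 0.995 over 15372 IDs, so the difference did not pass. With ELS 1 left out the log2 fold change was -5.26 and edgeR's adjusted p was 0.00133, which was the only call among 15307 IDs (0.00653%). Over all 24 alternatives the adjusted p ran from 0.00133 to 1.00, and it was 0.0717 with DESeq2. The SE was 0.80 with ELS 1 and 0.61 without it. Of the members, this one had the smallest p for paternal ELS, and it is printed partly for that.

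Few IDs in the table varied together with this member. Across the 19 libraries, 1 of the 14862 IDs that reach 1 CPM in at least 4 libraries had an r of 0.8 or more with it (0.81), where the median ID had 35 such partners. Having few partners does not set it apart, because 2677 of the 14862 IDs had no such partner, and 9 of the 35 members had none. The r of ENSRNOG00000029386 was -0.05 with the first reference row and -0.02 with the second.

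**Figure D3:**
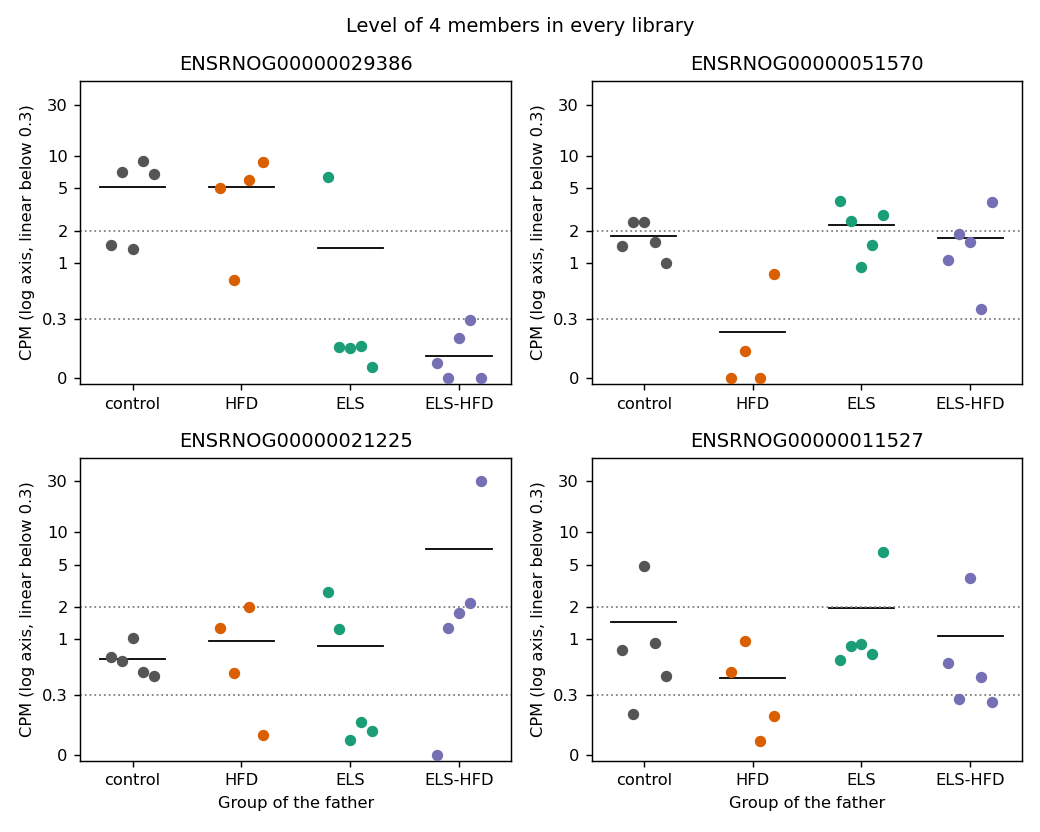
Level (CPM, vertical axis, logarithmic above 0.3 and linear below) of 4 members in every library by group of the father (horizontal axis). Each point is 1 library, black bars are group means, and dotted lines mark 0.3 and 2 CPM. For ENSRNOG00000029386, 9 of the 10 ELS and ELS-HFD points lie on or below the lower line. The highest point of all is ELS-HFD 5 for ENSRNOG00000021225, at 30.1 CPM.

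ENSRNOG00000011527 had the widest gap of all members, with 3 libraries above it and 16 below. The control libraries were at 0.789, 0.208, 4.85, 0.927 and 0.455 CPM, and the HFD libraries at 0.496, 0.966, 0.0694 and 0.198 CPM. The ELS libraries were at 0.639, 0.868, 0.909, 0.737 and 6.61 CPM, and the ELS-HFD libraries at 0.603, 0.284, 3.79, 0.442 and 0.265 CPM. The high libraries, control 3, ELS 5 and ELS-HFD 3, came from 3 different groups, with 56 to 112 reads each, and the 16 others formed a continuous range from 0.0694 to 0.966 CPM. No other ID reached an r of 0.8 with this member.

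ENSRNOG00000021225 reached the highest single value of any member, in 1 library. ELS-HFD 5 was at 30.1 CPM (341 reads), whereas the other ELS-HFD libraries were at 0, 1.28, 1.76 and 2.21 CPM. The control libraries were at 0.455 to 1.03 CPM, the HFD libraries at 1.28, 0.483, 2.01 and 0.0991 CPM, and the ELS libraries at 2.77, 1.26, 0.0757, 0.164 and 0.118 CPM. Apart from ELS-HFD 5, the levels of the groups overlapped. For paternal HFD averaged over early life its log2 fold change was 1.85 ± 0.81 (SE), with edgeR's adjusted p at 0.181, and without ELS-HFD 5 it was 0.68.

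ENSRNOG00000051570 was lowest in daughters of HFD fathers. It was at 0, 0.138, 0 and 0.793 CPM in the HFD libraries, below all 5 control libraries (1.43, 2.43, 2.42, 1.57 and 0.986 CPM). The ELS libraries were at 3.76, 2.45, 0.909, 1.47 and 2.77 CPM and the ELS-HFD libraries at 1.05, 1.85, 1.56, 0.368 and 3.70 CPM. Both overlapped the control libraries, while the range of the HFD libraries was overlapped by ELS-HFD, through ELS-HFD 4, and not by ELS. It had the smallest p of the members for paternal HFD averaged over early life (log2 fold change -1.70 ± 0.49 (SE), edgeR's adjusted p = 0.147) and for the interaction of both exposures (2.60 ± 0.99 (SE), edgeR's adjusted p = 0.969), and neither passed. Without HFD 4, the highest HFD library, these log2 fold changes were -2.65 and 4.49, and neither passed there. This member lay just inside the limit on r, at 0.58 with the first reference row. That row spanned 319 to 4715 CPM among control libraries but only 0.694 to 2.55 CPM among HFD libraries. In ELS 1 to 4 it was at 0.909 to 7.24 CPM, beside 0.909 to 3.76 CPM for this member. In ELS 5 it was at 4672 CPM, beside 2.77 CPM. In ELS-HFD 1 and 4 it was at 0.753 and 5.08 CPM, beside 1.05 and 0.368 CPM. In ELS-HFD 2, 3 and 5 it was at 855, 821 and 11277 CPM, beside 1.85, 1.56 and 3.70 CPM. The part of that row's variation in this result was not tested. The next member inside the limit had an absolute r of 0.54, and the first rows outside it had 0.61 and 0.62.

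The members fell into few groups that varied together. Clustering on r (average linkage, tree divided at 0.35) gave a set of 10, a set of 4 and 2 pairs, and left 17 members in no set. Within the set of 10 the r between members had a median of 0.79 and ran from 0.54 to 0.92. The set was high in ELS 1, ELS 4, HFD 4, ELS-HFD 2, ELS-HFD 3 and control 4, with a mean log2(CPM + 1) of 2.20, 2.0, 1.88, 1.52, 1.46 and 1.42 in that order, and low in the other 13 libraries, at 0.41 to 0.83. All 4 groups thus held libraries at both ends, and the 6 high libraries came from every group. All 10 members were on in ELS 4 and 9 in ELS 1, while none was on in any of the 13 low libraries and 1 to 6 were off there.

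Many other IDs followed the same libraries as this set. Of the 14862 IDs examined, 279 outside the set had an r of 0.8 or more with its mean. The nearest, at r = 0.97, was detected in every library, from 8.33 to 44.7 CPM. The 10 members each had 5 to 249 such partners (median 141), which was above 35, the number of the median ID, for 9 of the 10. By group the set's mean was 0.79 ± 0.38 in control, 0.86 ± 0.69 in HFD (n = 4), 1.17 ± 0.85 in ELS and 0.91 ± 0.53 in ELS-HFD (SD, n = 5 where not given), so the groups differed by less than their spread. Of the libraries that stood apart in the second reference row, ELS-HFD 2 and ELS-HFD 3 were among the high ones and HFD 1 among the low ones. With these 3 left out, the same 10 members again formed the largest set.

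**Figure D4:**
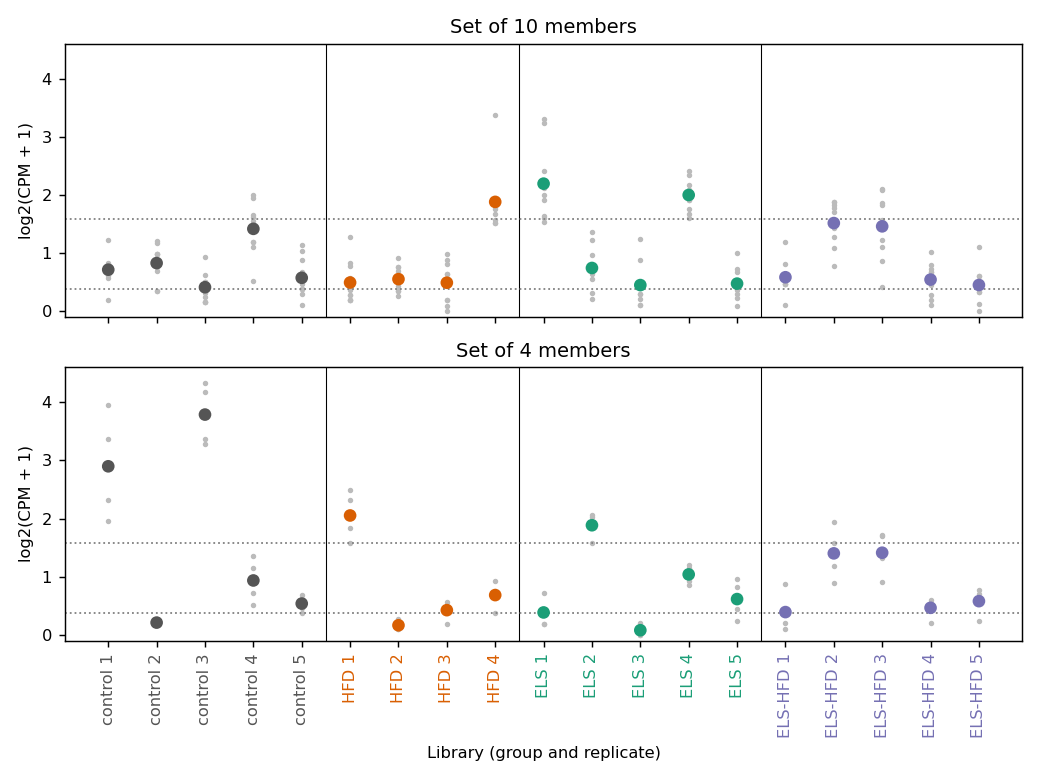
Mean log2(CPM + 1) (large points, coloured by group) of the set of 10 members and of the set of 4 in each library, with each member as a small grey point and dotted lines at 0.3 and 2 CPM. In the set of 10, 6 libraries from all groups lie at 1.42 to 2.20. In the set of 4, control 3 and control 1 lie highest and the others grade down.

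The set of 4 followed other libraries, and its members tracked each other closely, with r from 0.94 to 0.98. Its mean log2(CPM + 1) was 3.79 in control 3, 2.90 in control 1, 2.05 in HFD 1, 1.88 in ELS 2, and 1.41 and 1.40 in ELS-HFD 3 and ELS-HFD 2. It was lowest in ELS 3, HFD 2 and control 2, at 0.08, 0.16 and 0.21, where all 4 members were off. Its member of highest level went from 19.1 CPM in control 3 and 9.33 CPM in control 1 through 4.61, 3.08, 2.84 and 2.23 CPM in HFD 1, ELS 2, ELS-HFD 2 and ELS-HFD 3 to 0 in ELS 3. Libraries thus lay all along the range, and none of the 4 members had fewer than 9 libraries between the limits. The control group held both the highest and nearly the lowest libraries, and 17 other IDs had an r of 0.8 or more with the set.

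The first pair, which includes ENSRNOG00000011527, had an r of 0.68 and was highest in ELS 5, control 3 and ELS-HFD 3. The second pair had an r of 0.95 and was highest in ELS 1 (9.79 and 9.72 CPM), followed by ELS 2, ELS-HFD 5 and ELS 4 at 1.96 to 3.55 CPM. It was low in ELS 3, at 0.227 and 0.151 CPM, so the ELS group again spanned both states. Among the 17 members in no set, 8 had no partner at an r of 0.8 and the median was 1. Across all 595 pairs of members the median r was 0.01.

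The deposited table's row order adds 1 description. Ranked by row, 5 of the 34 neighbouring pairs of members lay within 15 rows of each other, where the median distance was 913 rows. In 3 of the 5 both rows belonged to the same set: rows 4 apart (r = 0.79) and 7 apart (r = 0.76) in the set of 10, and rows 14 apart (r = 0.98) in the set of 4. The other 2 pairs, 9 and 13 rows apart, had r of 0.28 and -0.06. The sources used here do not say what the rows are sorted by, and whether these rows share reads was not tested.

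Libraries differed widely in how many members were on. ELS 1 had 16 of 35 on, HFD 4 had 14, and control 3 and ELS 4 had 13, whereas ELS-HFD 4 had 1 and HFD 2 had 3. ELS 3 had the most members off, 18, and control 4 the fewest, 1. The number on averaged 7.4 ± 3.51 in control, 7.25 ± 4.79 in HFD, 10 ± 4.64 in ELS and 7.2 ± 4.55 in ELS-HFD (SD, n = 4 for HFD and 5 for the others), so the groups overlapped. The number off was 10 to 13 in the 4 HFD libraries and 1 to 11 in the control libraries. No member was on in 1 group only: 12 were on in 2 groups, 16 in 3 and 7 in all 4.

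States were shared nearly as often across groups as within them, and which came out higher depended on the summary. For each pair of libraries the share of members in the same state was taken among those on or off in both, which were 1 to 16 members. It averaged 52.7% ± 23.5 (SD) over the 36 pairs within a group and 47.1% ± 23.8 (SD) over the 135 pairs between groups. The difference of 5.57 percentage points was smaller than the spread over pairs, and the medians ran the other way, at 45.5% within and 50% between. Pairs with few members on or off in both count fully in these figures. The pairs share libraries and are not independent. The library with the most similar levels, by r over the 35 members, was in another group for 11 libraries and in the same group for 8, where each library has 3 or 4 others in its own group.

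Among pairs with at least 5 members on or off in both, 4 agreed in every member. Of these, 3 joined HFD 2, ELS 3 and ELS-HFD 1, from different groups, and 1 joined HFD 2 and HFD 3 (7 of 7). HFD 2 and ELS 3 agreed in 11 of 11 members (2 on and 9 off in both, r = 0.79), ELS 3 and ELS-HFD 1 in 10 of 10 (r = 0.72), and HFD 2 and ELS-HFD 1 in 5 of 5 (r = 0.60). The 3 libraries of different groups all had more members off than on: 18 and 4 in ELS 3, 13 and 3 in HFD 2, and 8 and 4 in ELS-HFD 1. Such totals alone raise the share in the same state, and by how much was not tested. The labels number these libraries 86, 76 and 81, without saying what the number stands for. At the other end of these pairs were control 3 and ELS 4, which shared the state of 0 of 10 members, followed by control 5 and ELS-HFD 3 with 0 of 7.

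Among within-group pairs with at least 5 members on or off in both, the highest shares were those of HFD 2 and HFD 3 (7 of 7, 6 of them off) and of ELS 1 and ELS 4 (13 of 15, 12 of them on). Of those 12 members on, 9 belonged to the set of 10. ELS-HFD 2 and ELS-HFD 3, which both stood apart in the second reference row, shared 9 of 12, and control 1 and control 3 shared 5 of 6. Among the 143 pairs with at least 5 members called in both, 15 shared 80% or more, 3 of 28 within groups and 12 of 115 between groups.

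**Figure D5:**
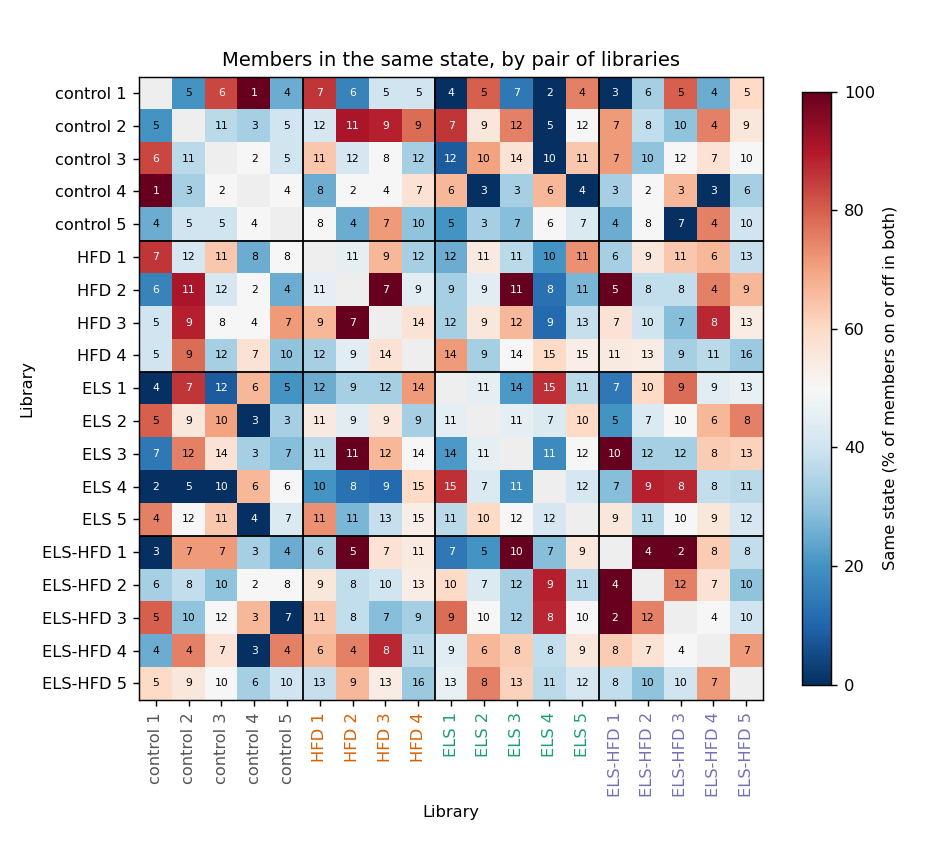
Share of members in the same state (colour, % of members on or off in both libraries) for every pair of libraries, with the number of such members in each cell and black lines between groups. High shares occur inside and outside the diagonal blocks of the groups, as for HFD 2 with ELS 3 (11 of 11).

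Tests of the father's exposure over all 19 libraries called no member. The choice of members used no group labels, but it left out 74 rows for their r with the first reference row. That row was at 319 to 4715 CPM in control libraries and 0.694 to 2.55 CPM in HFD libraries. It was at 0.909 to 7.24 CPM in ELS 1 to 4 and at 4672 CPM in ELS 5. It was at 0.753 CPM in ELS-HFD 1 and 5.08 CPM in ELS-HFD 4. In ELS-HFD 2, 3 and 5 it was at 821 to 11277 CPM. The numbers of members below are therefore not independent of the choice in any of the 3 comparisons. How much the choice bears on each was not tested. All 35 passed edgeR's filter on low counts, among 15372 IDs tested in 1 fit over the 19 libraries. At edgeR's adjusted p under 0.05, 0 members and 0 IDs in all (0%) were called for paternal ELS averaged over diets, for paternal HFD averaged over early life, and for their interaction. At an unadjusted p under 0.05 there were 5 members for paternal ELS, against 2.49% of all IDs, 2 for paternal HFD, against 24.3%, and 2 for the interaction, against 5.13%. These numbers moved when 1 library was left out. For paternal ELS they ran from 2 members (without ELS 1) to 8 (without ELS 2), with 1.72% to 6.22% of all IDs. For paternal HFD there was 1 member without control 5 or HFD 3 and there were 4 without HFD 1, HFD 4 or ELS-HFD 5, with 16.0% to 31.2% of all IDs over the 19 libraries left out in turn. For the interaction there was 1 member without HFD 4 or ELS 1, 4 without HFD 2 or ELS-HFD 5, and 5 without HFD 1 or ELS 3. The share of all IDs for the interaction ran from 3.59% to 20.2%, the highest without HFD 1. DESeq2 called 0 members as well, and 1, 306 and 5 IDs in the 3 comparisons (0.00651%, 1.99% and 0.0325%), though its filter on low levels left all 35 members without an adjusted p for paternal HFD.

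Fitted differences of the members were large and went both ways. For paternal ELS 19 members were higher and 16 lower, with a median log2 fold change of 0.15 beside 0.00 over all IDs, and a median size of 0.77 beside 0.10. For paternal HFD 12 were higher and 23 lower (median -0.23, size 0.47 beside 0.19), and for the interaction 15 and 20 (median -0.31, size 1.15 beside 0.18). The members were chosen for varying strongly between libraries, and these sizes were not compared with those of other IDs of similar level or spread. Of the 5 members at an unadjusted p under 0.05 for paternal ELS, ENSRNOG00000029386 was lower and the other 4 were higher, at log2 fold changes of 1.10 to 1.90. Both members of the second pair were among these 4, and both were led by ELS 1. Without HFD 1, ELS-HFD 2 and ELS-HFD 3 edgeR again called 0 members, and the numbers at an unadjusted p under 0.05 were 5 for paternal ELS (3.96% of all IDs), 8 for paternal HFD (10.2%) and 3 for the interaction (13%).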

How the data were processed

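RNA enriched for polyadenylated transcripts (about 400 ng per sample) was sequenced, per the labels' protocols. The authors deposited whole-number read counts per Ensembl gene ID, not normalized, in 1 table; each of its 19 columns carries the number that a sample's label gives. The submitters' processing notes name Rnor_6.0 and DESeq2. How reads were aligned, assigned to strands or shared between overlapping and near-identical genes is not given in the sources used here, so counts of such genes are uncertain. No 2 libraries agreed within sampling noise (chi-square per ID at least 5.03).

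CPM used column sums. Differences were tested with edgeR 4.0.16 in R 4.3.3 (filterByExpr, TMM, glmQLFit, group as the only term), with Benjamini-Hochberg adjustment over 15372 IDs. Standard errors are the size of the log2 fold change divided by the square root of F. Alternatives were DESeq2 1.42.0, other CPM limits, r limits and scalings, no filter, a replicate block, and leaving out libraries. On counts simulated for paternal ELS (15216 IDs), edgeR recovered 89% of 2-fold and 99% of 4-fold changes, with 9 false among 197 calls. The changed IDs were drawn from those with a mean of 1 CPM or more, and the noise was independent between IDs. The members were chosen for varying strongly, so these rates do not give the power for them.

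The available symbol table pairs 0 of the 32883 IDs, so 12 marker lists were not tested and no promoter or other sequence could be matched. The members, sets and lists were chosen with earlier results of these data known. The rule for named genes took members by widest gap, smallest p, number of libraries on, highest level, r next to the limit and set. Without symbols only 4 of the IDs it names are printed, chosen after their values were seen.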

Additional observations from a re-analysis of the deposited data

Results flagged for a closer look

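Each group of 4 or 5 libraries was examined for a library far from the rest (Dixon's ratio) in 8 measures, which gave 32 groups of values. In 5 of them a library stood apart, where chance gives about 1 in 20. The 4 printed IDs were chosen for such patterns, and no excess over that rate should be read from the 5. ELS 1 was high in ENSRNOG00000029386, at 2.87 on the log2(CPM + 1) scale, among ELS libraries that were otherwise nearly without it. ENSRNOG00000011527 was high in ELS 5, at 2.93, and in ELS-HFD 3, at 2.26. HFD 4 had 10 members off where the other 3 HFD libraries each had 13. HFD 4 was also high in the set of 10, with a mean of 1.88 on the same scale.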

How the results depend on the processing

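How many rows the rule finds depends on its limits. It found 35 rows as given, 1 with limits of 3 and 0.1 CPM, 681 with 1 and 0.5 CPM, 11 with at least 4 libraries on and 4 off, and 115 with no limit on r. With HFD 1, ELS-HFD 2 and ELS-HFD 3 left out, which was tried only after seeing the data, it found 21, all among the 35. Leaving out 1 library at a time gave 25 to 34, the fewest without control replicate 3. States shared within groups exceeded those between groups by 5.57 percentage points in the mean, though not in the median, by 3.05 without those 3 libraries, and by 50 with limits of 3 and 0.1 CPM, where a single member is compared. No member had a gap of at least 2, so that alternative gave no value. The largest set held 10 members in all 3 settings tried. edgeR called 0 IDs in each comparison, and with 1 library left out 0 to 1 for paternal ELS (1, which is also the 1 member called, without ELS replicate 1), 0 to 2 for paternal HFD (2 without HFD replicate 2) and 0 to 12 for the interaction (12 without ELS replicate 5). DESeq2 called 1, 306 and 5. Members called were 0 in all other settings. With DESeq2 and paternal HFD that 0 was fixed in advance, because no member had an adjusted p there. In that comparison ENSRNOG00000051570 had an unadjusted p of 0.00024 from DESeq2. For ENSRNOG00000029386 the difference with paternal HFD was -1.57 with all libraries and ran from -1.86 to 0.079 with 1 left out. It turned positive without ELS replicate 1, the library that holds the one high value among ELS libraries. The replicate block, which gave 0 calls in all 3 comparisons, changed no call. Deviations of same-numbered libraries correlated at -0.54 to 0.59 over 27 pairs, and 6 of 19 libraries correlated best with their own number, so the numbers were not taken to pair the animals. Depth limits the off state most in ELS-HFD 2.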
